A study of Danio rerio with 15 samples.

Results

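V1 interneurons were compared with spinal neurons at large on 11 of the 15 arrays of the study, 6 of V1 cells and 5 of all spinal neurons. Members were taken by their label, and each of the 15502 probe sets that were not array controls was compared. All embryos were zebrafish aged 27 hours post fertilization (hpf), kept at 28.5 °C until 10 hpf and at 32 °C thereafter. The V1 cells, which the labels also call CiA, were sorted by fluorescence from Tg(pax2a:GFP), a line in which pax2a sequence drives the reporter, after the region of the pronephros (the embryonic kidney) had been cut away. All spinal neurons were sorted from Tg(elavl3:EGFP), whose reporter follows a gene of postmitotic neurons, and the removal of the pronephros is stated for the V1 samples alone. The other 4 arrays held sorted trunk cells, spinal cord with other tissues, for which no transgenic line is named. They served as a reference for where in the trunk a transcript is abundant. The design text calls the samples biological replicates.

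V1 interneurons arise in the ventral spinal cord from a progenitor domain beside those of V0 and V2 cells, and are marked by Engrailed-1. They are inhibitory, use glycine, GABA or both, and project towards the head on their own side of the cord. In the zebrafish the class is known as CiA, for circumferential ascending, and its cells inhibit motor neurons and other interneurons during swimming. Pax2 factors act upstream of Engrailed and of the inhibitory transmitter genes in several spinal interneuron classes.

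Values are the authors' RMA values on the log2 scale, on which 1 unit is a doubling of signal. Their median over all arrays and probe sets was 5.52. No detection call was used, so that a value near the bottom of the scale, which began at 2.01, is not known to lie above background. A gene is called higher or lower in V1 where limma's moderated test gave an adjusted p under 0.05 over all 15502 probe sets. All-neuron arrays 1 to 3 and arrays 4 and 5 resembled each other within each subset more than across (Pearson's r over probe sets 0.988 to 0.997 among arrays 1 to 3, 0.996 between arrays 4 and 5, and 0.980 to 0.987 across). Each difference was therefore also tested against either subset alone. The subsets differed from each other in 189 probe sets that were higher in arrays 1 to 3 (1.22%) and 66 that were lower there (0.426%).

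The 3 markers of V1 cells, en1b, pax2a and otpb, were higher on V1 arrays. The sequence of pax2a drives the V1 reporter, so its level also follows the sort, and the mean of the 3 does not test the label. That mean was 8.35 to 9.14 on V1 arrays, 7.06 to 7.38 on all-neuron arrays and 5.49 to 5.95 on trunk arrays. The mean of 6 genes of postmitotic neurons was 9.88 to 10.37 on V1 arrays and 10.27 to 10.78 on all-neuron arrays, above the 8.47 to 8.93 of trunk arrays. Of the 6, stmn2a (−0.59, adjusted p = 0.00590) and gap43 (−0.74, adjusted p = 0.0130) were lower in V1 and 0 were higher. Neither of these falls was called against both subsets of all-neuron arrays. Markers of cells outside the nervous system also stood high on V1 arrays, and their levels are given with the genes they bear on.

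In V1 arrays 1966 probe sets were higher and 1442 lower than in all-neuron arrays, or 12.7% and 9.30% of those tested (22.0% in either direction). Of these, 521 higher (3.36%) and 332 lower (2.14%) reached a log2 difference of 1. V1 and all-neuron arrays did not overlap in 1246 probe sets with V1 higher (8.04%) and 846 with V1 lower (5.46%). Against all-neuron arrays 1 to 3 alone, 1385 were higher (8.93%) and 1039 lower (6.70%), and against arrays 4 and 5 alone, 1746 (11.3%) and 1468 (9.47%). A call in the same direction in all 3 tests, used below as the stricter of the call rules, was made for 1015 higher (6.55%) and 613 lower probe sets (3.95%). Since the 3 tests share the V1 arrays, they are not independent. With the mean of ribosomal protein genes set equal on all arrays, the median of all probe sets moved from −0.01 to −0.56 and the split from 1966 higher and 1442 lower to 512 and 11691.

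**Figure D1:**
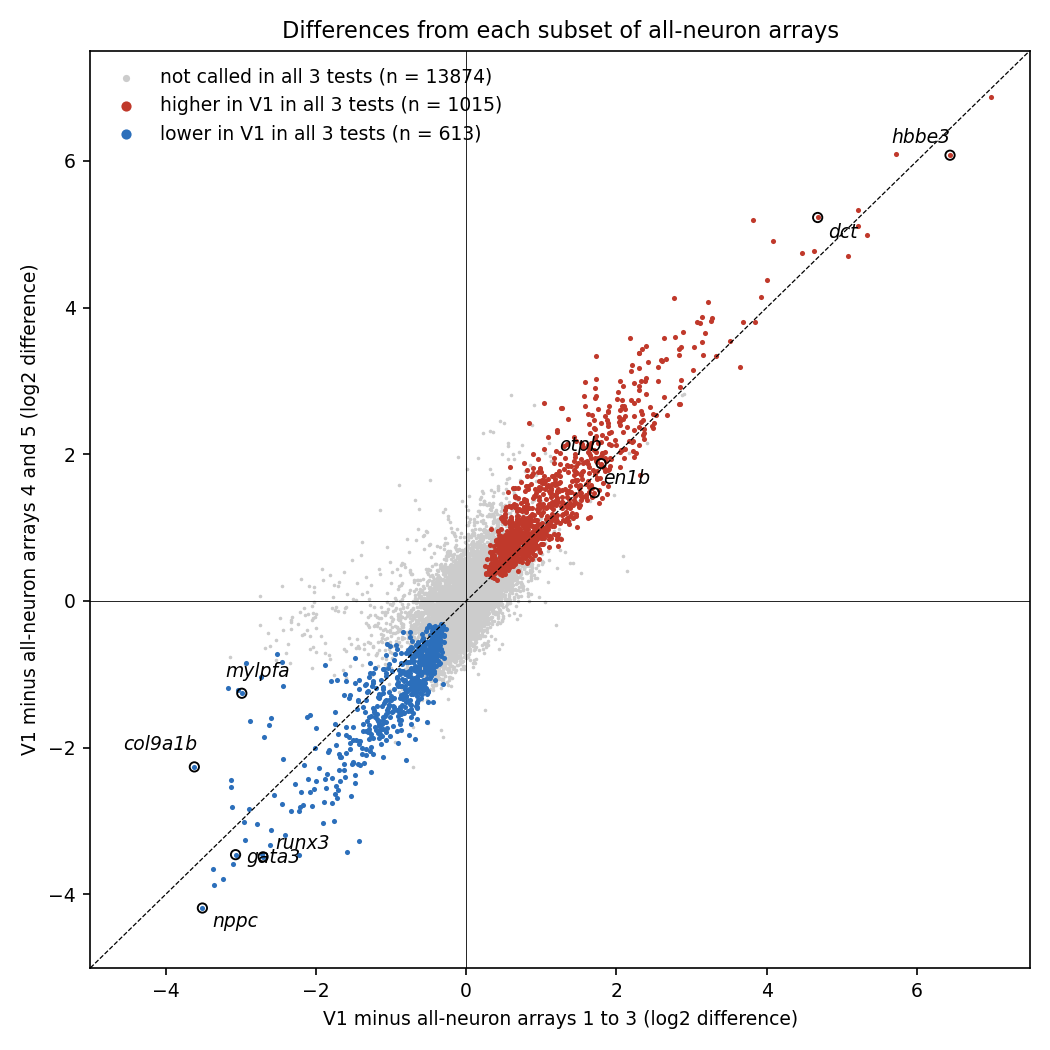
Each point is 1 of the 15502 probe sets, placed by the log2 difference of V1 arrays from all-neuron arrays 1 to 3 (horizontal axis) and from arrays 4 and 5 (vertical axis), with 9 genes ringed and named. The red (1015 higher) and blue points (613 lower) are those called in all 3 tests. The dashed line marks equal differences. otpb, en1b and hbbe3 lie near it. gata3 and runx3 lie below it, with a larger fall against arrays 4 and 5, while mylpfa and col9a1b lie above it, with a smaller one.

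The called probe sets were sorted by the trunk arrays. Of the 1015 that were higher in all 3 tests, the trunk mean lay above the all-neuron mean in 913 (90.0%) and at or below it in 102 (10.0%). Of these 102, 72 had 1 gene symbol and stood for 71 named genes. The 102 had a median difference of 0.67 and reached 1 in 19 cases. The 613 lower probe sets had the trunk mean at or below the all-neuron mean in 569 (92.8%) and above it in 44 (7.18%). Over all 15502 probe sets, the trunk mean lay above the all-neuron mean in 8386 (54.1%) and at or below it in 7116 (45.9%). Both differences are taken from the same 5 all-neuron arrays, which ties them together. The shares among called probe sets therefore describe the calls and do not test them. In the plot of differences from both subsets, the points called in all 3 tests run along the line of equal differences in both directions.

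Among transcription factors known from V1 cells, 7 of 17 measured genes rose and 2 fell, beside 1337 higher (15.2%) and 793 lower (9.02%) of 8793 genes, each taken by its brightest probe set. The median difference of the list was 0.31, against 0.01 over those genes, and 0.46 and 0.22 against all-neuron arrays 1 to 3 and 4 and 5. Of the 7, otpb, en1b, pax2a, foxd3 and lhx5 rose in all 3 tests. The list was chosen with earlier results of these data known, and it holds pax2a, whose sequence drives the V1 reporter. Its counts therefore describe the list and do not test it. The mean level of the list was 6.59 to 7.11 on the V1 arrays and 6.43 to 6.57 on the all-neuron arrays. The groups did not overlap but nearly met, at V1 array 2 (6.59) and all-neuron array 5 (6.57). In RNA from sorted cells, a higher share of cells that carry a transcript and more of it per cell cannot be told apart.

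en1b, the zebrafish gene of the Engrailed-1 homeobox factor that defines the class, read 10.83 at the lowest, 11.27 at the median and 11.49 at the highest of the V1 arrays. The all-neuron arrays read 9.78, 9.37, 9.49, 9.79 and 9.76, and the trunk arrays 7.95 to 8.33. The V1 arrays were all higher than the all-neuron arrays, with a gap of about 1 unit and little spread within either group. The difference was 1.61 (SE 0.12, adjusted p = 2.78e-07), at 1.71 and 1.48 against arrays 1 to 3 and 4 and 5. Its paralog en1a read 2.76 to 3.06 on V1 arrays and 2.74 to 3.15 on all-neuron arrays, near the bottom of the scale.

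otpb encodes a homeobox factor (orthopedia) that is best known from neuroendocrine cells of the hypothalamus. V1 arrays read 6.66, 7.03 and 7.98 (lowest, median and highest), and the all-neuron arrays 5.38, 5.20, 5.39, 5.10 and 5.39. All V1 arrays lay above all of these, and the trunk was lower still at 3.32 to 4.08. The difference of 1.83 (SE 0.20, adjusted p = 8.57e-06) was alike against both subsets (1.80 and 1.87).

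pax2a, the gene whose sequence drives the V1 reporter and whose level therefore also follows the sort, read 7.33, 8.20 and 8.77 on V1 arrays. On the all-neuron arrays it read 6.98, 6.61, 6.60, 6.97 and 6.95, with no overlap but a gap of less than 0.5 between the nearest arrays. It rose by 1.30 (adjusted p = 0.000196). A dimmer probe set differed by 0.29 and was not called (adjusted p = 0.0523). Its relatives pax2b (V1 mean 6.16, difference 0.55, adjusted p = 0.122) and pax8 (5.11, 0.31, adjusted p = 0.171) did not pass, and pax5 stood at 4.91 and 4.88.

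lhx5, a LIM homeobox gene of several inhibitory spinal classes, read 9.32, 9.69 and 9.88 on V1 arrays and 8.74, 8.77, 8.62, 9.09 and 9.11 on all-neuron arrays. The groups did not overlap, and all-neuron arrays 4 and 5 were the nearest to the V1 arrays. It rose by 0.81 (adjusted p = 0.000105). hmx3a, a homeobox gene of interneurons and the ear, showed the same order, with V1 arrays at 8.59, 9.12 and 9.46 and all-neuron arrays at 8.21, 8.13, 8.23, 8.52 and 8.56. Its rise of 0.77 (adjusted p = 0.00498) was 0.91 against arrays 1 to 3 and 0.56 against arrays 4 and 5, and it was not called in all 3 tests. lhx1a, the close relative of lhx5, rose by 0.41 (adjusted p = 0.0221) with overlapping arrays, and its other probe sets (0.73 and 0.35) did not pass. The lhx1a call was lost without all-neuron array 1 (adjusted p = 0.0577) or array 2 (0.0556).

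foxd3, a forkhead factor of V1 cells and also of neural crest, read 9.34, 9.77 and 10.10 on V1 arrays against 8.18, 8.44, 8.54, 8.49 and 8.52 on all-neuron arrays. It rose by 1.28 (adjusted p = 7.42e-05). The trunk arrays, at 8.34 to 9.39, reached into the V1 range, unlike those of en1b, otpb, pax2a, lhx5 and hmx3a. Markers of pigment cells and neural crest also stood high on V1 arrays (below), and their part in the foxd3 value was not tested. The 2 members that fell were sp8b, a zinc finger factor (−0.99, adjusted p = 0.00912), and foxp2, a forkhead factor (−0.43, adjusted p = 0.00648, with V1 arrays at 4.07 to 4.48).

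**Figure D2:**
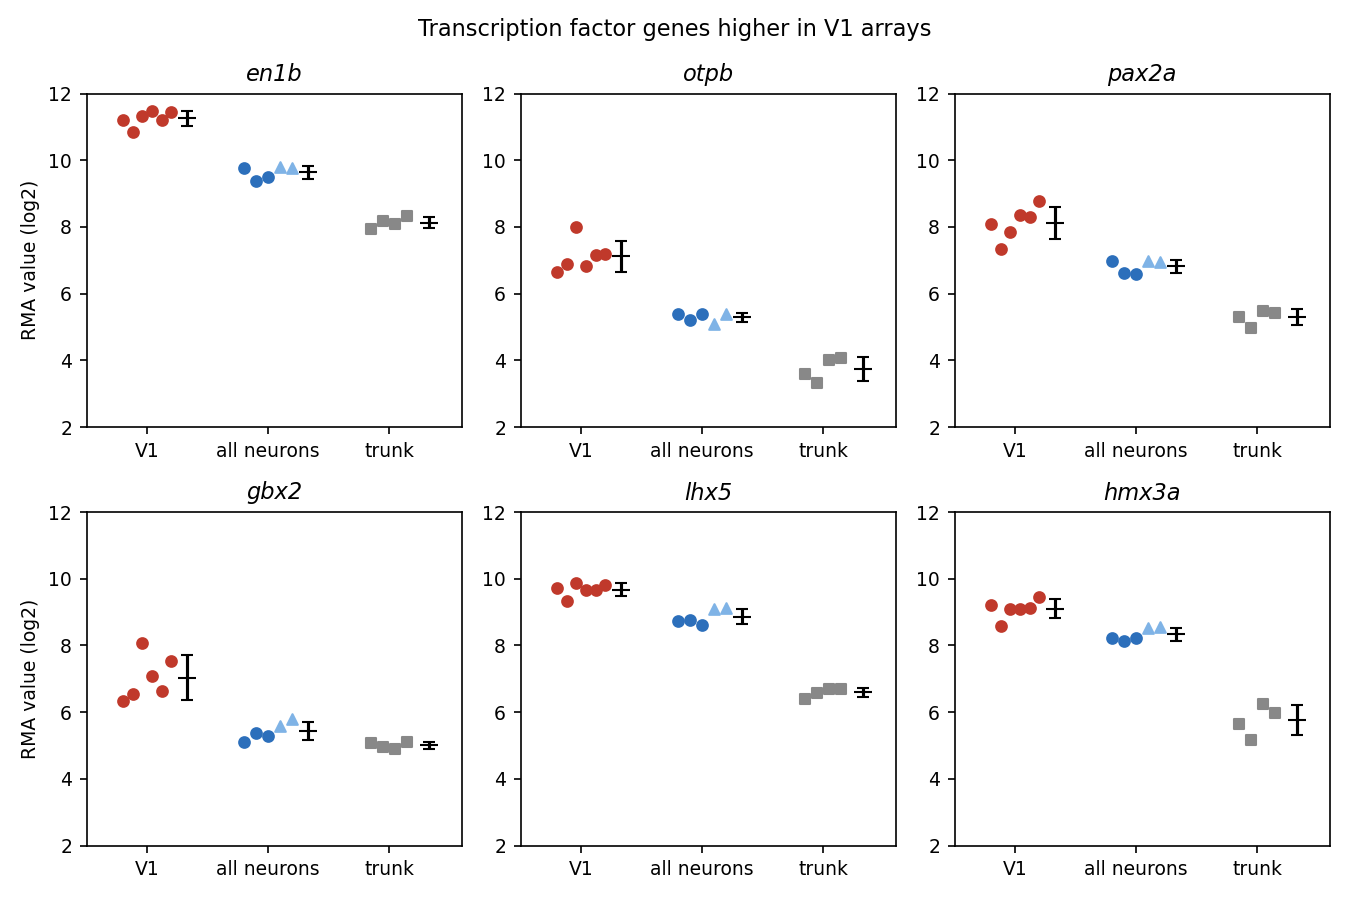
Each panel shows the RMA value (log2) of 1 transcription factor gene on every array, with the mean and SD of each group as a bar to the right of its points. Red circles are the 6 V1 arrays, dark circles and light triangles all-neuron arrays 1 to 3 and 4 and 5, and squares the 4 trunk arrays. In all 6 panels every V1 point lies above every all-neuron point, by the widest margin for otpb and en1b and the narrowest for hmx3a.

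Further genes rose in V1 arrays while their trunk mean lay at or below the all-neuron mean. In the plot of transcription factor values, gbx2 shares this pattern with the V1 genes. gbx2, a homeobox gene best known for patterning the boundary of midbrain and hindbrain, read 6.32, 6.86 and 8.09 on V1 arrays. It read 5.11, 5.39, 5.29, 5.59 and 5.80 on all-neuron arrays and 4.90 to 5.12 on trunk arrays. V1 arrays varied more among themselves than for en1b, and none fell into the range of the other groups. The rise was 1.60 (SE 0.25, adjusted p = 0.000282), at 1.77 and 1.34 against the subsets.

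tfap2a, which encodes the AP-2 alpha factor of neural crest, epidermis and some inhibitory interneurons, read 9.98, 10.45 and 11.08 on V1 arrays and 9.60, 9.18, 9.09, 9.10 and 9.09 on all-neuron arrays. All-neuron array 1 stood apart upwards but stayed below the V1 arrays. The rise was 1.29 (adjusted p = 4.68e-05). The trunk arrays read 8.64 to 9.25, lower than any V1 array. tfap2a also belongs to the lists of pigment genes (24 of 37 higher) and skin genes (11 of 59 higher), and the part of those cells in this value was not tested.

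The next genes taken by the naming rule were si:ch211-80h18.1 (1.71, adjusted p = 0.000173) and ppp2r2bb, a regulatory subunit of protein phosphatase 2A (1.43, adjusted p = 0.000565). Also taken were trappc5, a subunit of the TRAPP complex that tethers transport vesicles (1.27, adjusted p = 0.00228), and ivns1abpa, an actin-binding kelch protein (1.25, adjusted p = 1.23e-05). ivns1abpa read 8.21, 8.50 and 8.90 on V1 arrays and 7.10 to 7.44 on all-neuron arrays, with no overlap, though its dimmer probe set did not differ beyond its error (0.00, adjusted p = 0.990). The 12 genes that the naming rule took from this class also held vac14, a scaffold of the lipid kinase complex of endosomes (1.00), ccdc22, part of an endosomal sorting complex (0.96), and tktb, a transketolase of the pentose phosphate pathway (0.90). The rule ranks genes by the smaller of the differences from the subsets, so the genes taken are not all those with the largest overall rise. The other probe sets of ccdc22 rose too (1.32 and 0.88), but their trunk means lay above the all-neuron means, at 7.52 and 7.29 for the brightest. All 12 were called in all 3 tests, as the rule requires, with V1 and all-neuron arrays that did not overlap.

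Genes of V2 interneurons and of Kolmer-Agduhr cells, the neurons that contact the spinal fluid, fell. Of 13 measured genes 9 were lower (69.2%, beside 9.02% over all genes) and 0 higher. Of the 9, 8 were lower in all 3 tests. The list had a median of −1.20 (−0.98 against all-neuron arrays 1 to 3 and −1.52 against arrays 4 and 5). The list's mean level was 4.68 to 5.12 on V1 arrays, below the all-neuron arrays (6.06 to 6.41). The V1 arrays met the range of the trunk arrays (5.12 to 5.29) at V1 array 3 and trunk array 1, both at 5.12.

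gata3, a zinc finger factor of V2b and Kolmer-Agduhr cells, read 4.01, 4.31 and 4.52 on V1 arrays and 7.47, 7.20, 7.37, 7.98 and 7.49 on all-neuron arrays. Every all-neuron array was higher by more than 2 units, and the trunk lay between at 4.81 to 5.66. The difference was −3.22 (SE 0.16, adjusted p = 4.81e-09). sox1a, a SoxB1 factor of the same cells, read 4.02, 4.52 and 5.16 against 7.73, 8.02, 7.94, 8.50 and 8.33 (−3.56, adjusted p = 1.17e-08). Both groups were tight and far apart, although the other probe sets of sox1a fell by less (−1.11 and −0.36).

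sst1.1, a somatostatin gene that zebrafish Kolmer-Agduhr cells express, read 4.75, 5.31 and 5.98 against 8.73, 8.91, 8.63, 9.28 and 8.82 (−3.48, adjusted p = 6.12e-09). tal1 and gata2a, blood and V2b factors, fell by 1.80 and 1.66, and vsx1, a homeobox factor of V2 cells, by 1.91. tal1 and gata2a also stand in the red cell and vessel lists, where they were members that fell. sox21a (−0.15) and lhx3 (−0.05), the V2a and motor neuron factor, did not pass the test, with lhx3 at a V1 mean of 3.74, near the bottom of the scale.

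Genes of sensory and dorsal neurons fell in 11 of 20 measured cases (55.0%, beside 9.02% over all genes) and rose in 0. All 11 were lower in all 3 tests (list median −0.74, at −0.75 and −0.73 against the subsets). runx3, a Runt factor of sensory neurons, read 5.24, 5.74 and 6.39 on V1 arrays and 8.72, 8.37, 8.53, 9.40 and 9.25 on all-neuron arrays. The groups lay about 2 units apart at the nearest arrays. The difference was −3.02 (SE 0.23, adjusted p = 2.78e-07), with −0.38 in a dimmer probe set. prdm14, a zinc finger factor of Rohon-Beard and motor neurons, fell by 2.10, from 7.16 to 8.72 on all-neuron arrays to 5.68 to 6.02 on V1 arrays. The glutamatergic selector genes tlx3b (−1.73, adjusted p = 7.33e-06) and tlx2 (−1.59, adjusted p = 0.000105) fell as well.

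Of 11 motor neuron genes 5 fell (45.5%, beside 9.02% over all genes), 3 of them in all 3 tests (median −0.28). etv4, an ETS factor of motor neurons and sensory cells, fell by 1.42 (V1 arrays 6.44 to 6.89, all-neuron arrays 7.54 to 8.55). isl2a, the Islet-2 factor of motor and Rohon-Beard neurons, fell by 1.12 (adjusted p = 0.000617). slc18a3a, the vesicular acetylcholine transporter gene, fell by 0.68 (adjusted p = 0.000341) from a high level, and V1 arrays still read 10.66, 10.74 and 11.15 against 11.26 to 11.65 on all-neuron arrays and 9.40 to 9.94 on trunk arrays. V1 array 3 was the highest of the V1 arrays for this gene. ret, a growth factor receptor of motor and sensory neurons, did not pass (0.23).

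Genes of transmitter synthesis and transport rose in 4 of 16 cases and fell in 4. Both genes of glutamate decarboxylase, the enzyme that makes GABA, were among those that fell. gad2 read 6.08, 6.81 and 7.27 on V1 arrays and 7.97, 8.16, 8.42, 8.77 and 8.46 on all-neuron arrays, without overlap. It fell by 1.63 (SE 0.18, adjusted p = 7.67e-06), by 1.46 and 1.89 against the subsets. gad1b read 7.13, 8.34 and 8.87 against 9.08, 9.34, 9.29, 9.71 and 9.74 (−1.30, adjusted p = 0.00171). Both stood above the trunk arrays on average, which read 5.65 to 5.79 for gad2 and 6.46 to 7.12 for gad1b.

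slc32a1, the vesicular transporter that loads both GABA and glycine, moved the other way by a small amount. V1 arrays read 10.81, 11.13 and 11.53 and all-neuron arrays 10.66, 10.61, 10.66, 10.95 and 10.80, and the groups overlapped at all-neuron array 4. The rise of 0.41 (adjusted p = 0.0207) was 0.50 against arrays 1 to 3 and 0.27 against arrays 4 and 5, and was not called in all 3 tests, nor without all-neuron array 2 (adjusted p = 0.0522). Scaled to equal ribosomal protein means, slc32a1 stood at −0.14, beside −0.56 for the median probe set.

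The other rises in the transmitter list were of gch2 (2.75, adjusted p = 5.78e-06), a GTP cyclohydrolase gene that zebrafish pigment cells use for pteridines, and of the glutamine synthetase genes glula (2.25) and glulb (1.10). gch2 read 9.71, 10.53 and 10.77 on V1 arrays, 6.89 to 8.29 on all-neuron arrays and 7.89 to 9.59 on trunk arrays. These 3 genes stood above the all-neuron level in the trunk too, and the pigment markers moved with them, whose part was not tested.

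Neuropeptide and granin genes fell in 8 of 22 cases (36.4%), 7 of them in all 3 tests, and 1 rose (4.55%). The shares over all genes were 9.02% and 15.2%, and the list median was −0.29. nppc, the precursor of C-type natriuretic peptide, read 4.64, 5.99 and 6.46 on V1 arrays and 9.50, 9.03, 9.33, 10.20 and 9.72 on all-neuron arrays. The groups were more than 2 units apart, and the trunk (6.48 to 6.85) lay just above the V1 arrays. The difference was −3.78 (SE 0.28, adjusted p = 2.34e-07). scg2a, a secretogranin of dense-core vesicles, read 6.75, 7.89 and 8.54 against 10.70, 10.91, 10.90, 11.39 and 11.26 (−3.30, adjusted p = 3.14e-07). adcyap1b, a precursor of PACAP, fell by 1.70 (adjusted p = 0.000141). The 1 member that rose was penkb, a proenkephalin gene, at 9.16, 9.43 and 10.36 against 8.83, 8.22, 8.40, 9.11 and 8.94 (0.88, adjusted p = 0.0308), with a gap of 0.05 between the nearest arrays and no call in all 3 tests. Its call was also lost without any 1 of V1 arrays 1, 3 and 6 and all-neuron arrays 2 and 3 (adjusted p = 0.0521 to 0.0809).

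Falls made up 31.6% of synaptic vesicle and release genes and 45.5% of ion channel genes, beside 9.02% over all genes. Among transmitter receptor genes they made up 13.6%. Of 19 synaptic vesicle and release genes 6 fell and 1 rose (median −0.27, at −0.11 and −0.45 against the subsets), and against all-neuron arrays 1 to 3 alone 2 fell. snap25b, a SNARE of vesicle fusion, fell by 1.47 (8.01 to 8.82 on V1 arrays, 9.49 to 10.20 on all-neuron arrays), while its paralog snap25a read a V1 mean of 10.78 and did not pass (−0.17, adjusted p = 0.474). syt4, a synaptotagmin of dense-core vesicles, fell by 0.86. syt9a, a synaptotagmin outside that list, fell by 2.48 from 9.16, 8.75, 8.61, 9.61 and 9.37 to 6.13, 6.66 and 7.20. The member that rose was syngr1a, a synaptogyrin, at 6.67, 6.95 and 8.02 against 4.90, 5.98, 5.78, 4.88 and 4.99 (1.78, adjusted p = 0.000159).

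cbln1, a secreted organizer of synapses, fell by 2.90 (SE 0.20, adjusted p = 1.1e-07). It read 5.72, 6.33 and 6.45 on V1 arrays and 9.06, 8.57, 8.88, 9.63 and 9.49 on all-neuron arrays, and the trunk overlapped the V1 range at 6.27 to 7.21. nlgn4xa, a neuroligin (−2.05), and nptx1l, a pentraxin (−2.24), single genes chosen after their values were seen, also fell. The calcium-binding proteins calb1 (−1.64) and calb2a (−2.05) fell in all 3 tests.

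Of 11 ion channel genes 5 fell, 2 of them in all 3 tests, and 1 rose (median −0.08). Against all-neuron arrays 1 to 3 alone 3 fell, and against arrays 4 and 5 alone 3 fell. cacna1ha, a T-type calcium channel, read 4.46, 4.67 and 4.93 against 5.94, 6.02, 6.13, 6.08 and 6.00, a fall of 1.34 with the same size against both subsets (−1.34 and −1.35, adjusted p = 7.44e-08). kcnd3, an A-type potassium channel, fell by 1.19 (adjusted p = 1.83e-05). Of 22 transmitter receptor genes 3 fell, 1 of them in all 3 tests, and 1 rose (median −0.13). glra4a, an alpha subunit of the glycine receptor, read 5.34, 5.62 and 6.20 on V1 arrays and 8.01, 7.68, 7.64, 8.03 and 8.16 on all-neuron arrays. The trunk read 7.65 to 8.48, so that V1 arrays were the low group, by 2.24 against all neurons (adjusted p = 5.1e-07).

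**Figure D3:**
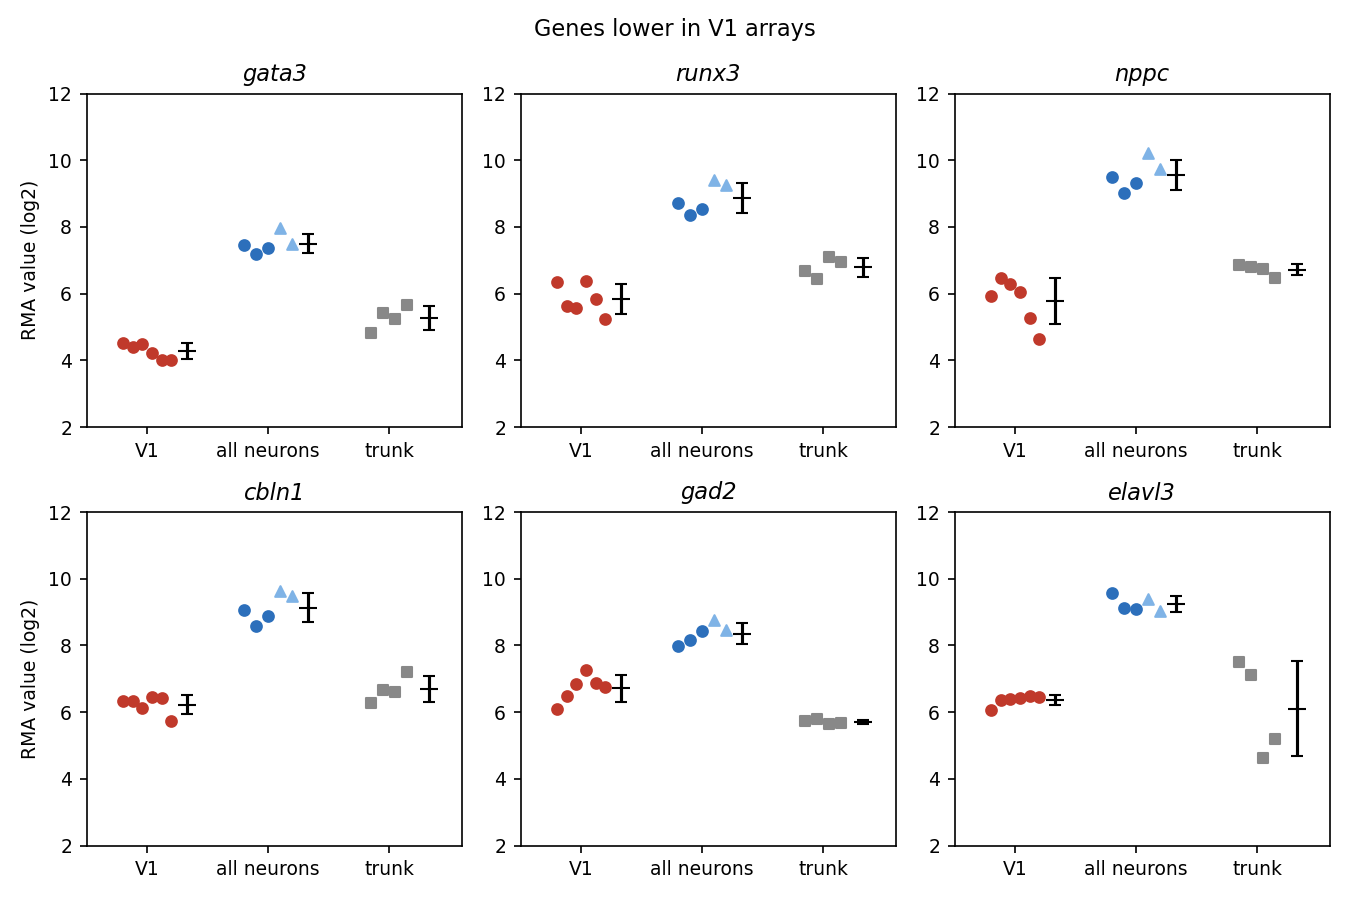
Each panel shows the RMA value (log2) of 1 gene on every array, with points and bars as in the plot of transcription factor values (red circles V1, dark circles and light triangles all-neuron arrays 1 to 3 and 4 and 5, squares trunk, bars mean and SD). V1 points lie below all-neuron points in every panel. The elavl3 panel shows the probe set that fell, and the brightest probe set of that gene was not called. For gata3 and runx3 the trunk lies between the groups, for gad2 it is lowest, and for the elavl3 probe set trunk arrays 1 and 2 read 7.51 and 7.11 and arrays 3 and 4 read 4.62 and 5.20.

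Adhesion genes rose in 6 of 36 cases (16.7%) and fell in 6 (16.7%), beside 15.2% and 9.02% over all genes (median −0.08). pcdh10a, a delta-protocadherin, read 6.14 on V1 array 3 and 7.48 to 7.74 on the other V1 arrays, against 5.66, 5.61, 5.62, 5.15 and 5.11, a rise of 1.91 (adjusted p = 4.48e-05). Its dimmer probe sets did not pass (0.05 and −0.04). nrxn1a, a presynaptic neurexin, rose by 0.74 (adjusted p = 0.0308) with overlapping arrays, and was not called without any 1 of V1 arrays 3 to 6 and all-neuron arrays 2 and 3 (adjusted p = 0.0521 to 0.0858). cadm2a, a synaptic adhesion protein of the immunoglobulin family, fell by 1.87, and cntn1b, a contactin of axons, by 1.01. Of 42 axon guidance genes 10 fell (23.8%) and 2 rose (4.76%), with a median of −0.12. Among them were sema3e, a semaphorin (−1.11), and plxnd1, its receptor and a gene of vessels (0.85). Of 45 tubulin and microtubule genes 11 fell (24.4%) and 1 rose (2.22%), with a median of −0.19. The falls were led by the stathmin gene stmn4 (−2.17), tppp3 (−2.10), the tau gene maptb (−1.89) and the intermediate filament gene inaa (−1.50). The plot of genes lower in V1 arrays shows the separation of the groups for 6 genes. Its elavl3 panel draws the probe set that fell, while the brightest probe set of elavl3 was not called (0.13, adjusted p = 0.736).

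Progenitor genes fell in 21 of 43 cases (48.8%), 13 of them in all 3 tests, and rose in 5 (11.6%). The shares over all genes were 9.02% and 15.2%. The list median was −0.53, at −0.65 and −0.34 against the subsets. olig2, the bHLH factor of the motor neuron progenitor domain, read 4.94, 5.96 and 6.44 on V1 arrays and 8.14, 8.01, 7.80, 7.47 and 7.41 on all-neuron arrays (−1.90, adjusted p = 1.2e-05). olig3, a bHLH factor of dorsal and ventral progenitors, fell by 1.36. The floor plate genes shha (−2.33, adjusted p = 1.55e-05), foxa2 (−1.68) and spon1b, an F-spondin (−2.00, and −2.01 against all-neuron arrays 1 to 3), fell. shha read 4.39, 5.54 and 6.56 against 7.61, 8.16, 8.02, 7.76 and 7.53, with V1 array 3 the highest of its group.

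Of the 5 progenitor genes that rose, sox10 (3.08) is a neural crest factor and glula (2.25) is also in the transmitter list. her9 (0.98, adjusted p = 0.000893) and her6 (0.67), repressors of the Hes family that Notch signals can induce, rose in all 3 tests, and zic1 did not (0.88), whose call was lost without any 1 of V1 arrays 1 and 2 and all-neuron arrays 4 and 5 (adjusted p = 0.0502 to 0.0816). Among 51 Notch and proneural genes 6 rose (11.8%) and 8 fell (15.7%), beside 15.2% and 9.02% over all genes (median −0.09). id2a, an inhibitor of bHLH factors, rose by 0.70 with V1 arrays at 9.06 to 9.37 and all-neuron arrays at 8.35 to 8.66. The largest fall besides the olig genes was of insm1b, a zinc finger factor of newly formed neurons (−1.13, adjusted p = 0.00734).

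Of 98 genes of signalling pathways 7 rose (7.14%, beside 15.2% over all genes) and 14 fell (beside 9.02% over all genes), with a median of −0.07. Among those that rose was crabp2b, a binding protein of retinoic acid, at 7.77, 8.40 and 8.77 against 6.25, 6.45, 6.11, 5.69 and 5.92 (2.23, adjusted p = 5.82e-07). cyp26b1, an enzyme that breaks retinoic acid down, rose by 1.49 in its brightest called probe set, while 2 of its other probe sets did not pass (−0.02 and 0.00). aldh1a2, the enzyme that makes it, rose by 1.29 (adjusted p = 0.0443) with overlapping arrays, a call that was lost without any 1 of V1 arrays 1, 2, 4 and 6 and all-neuron arrays 3 to 5 (adjusted p = 0.0619 to 0.125). Besides shha, wnt4b (−1.89) and fgf13a, an intracellular modulator of sodium channels (−1.61), fell most.

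Hox genes gave a few calls, with 8 of 53 lower (15.1%) and 2 higher (3.77%), beside 9.02% and 15.2% over all genes (median −0.13). cdx4, a caudal factor that sets Hox expression in the trunk, read 5.82, 6.29 and 6.68 against 7.86, 7.90, 8.09, 8.51 and 8.62, a fall of 1.93 (adjusted p = 1.76e-06). hoxc6b (−0.84) and hoxa11b (−0.76) fell in all 3 tests. hoxc11a rose by 0.65 (adjusted p = 0.0143), with all-neuron arrays at 6.79 to 7.16 and V1 arrays at 6.97 to 8.02, and neither of its dimmer probe sets passed.

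Markers of several cell types other than neurons also separated the 2 groups. The mean of 4 red cell markers was 8.99 to 10.45 on V1 arrays, 4.77 to 5.17 on all-neuron arrays and 9.23 to 10.04 on trunk arrays. Pigment and neural crest markers read 8.83 to 10.16, 5.61 to 6.52 and 7.47 to 8.68 in the same order, and pronephros markers 6.50 to 8.13, 3.70 to 6.25 and 5.42 to 6.50. Markers of vessels (5.73 to 6.75 against 4.20 to 4.91) and white blood cells (5.71 to 6.29 against 4.28 to 4.59) were also higher on every V1 array than on any all-neuron array. In the other direction, skeletal muscle markers read 6.28 to 7.59 on V1 arrays and 7.92 to 10.03 on all-neuron arrays, and notochord and floor plate markers 4.68 to 6.41 and 7.08 to 7.93. Skin markers overlapped (6.09 to 7.85 and 5.33 to 7.88), as did progenitor markers (8.47 to 9.18 and 9.07 to 9.72). Of the marker genes, cdh5, fli1a, slc4a4a, acta1b, her4.1 and nes had no named probe set.

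**Figure D4:**
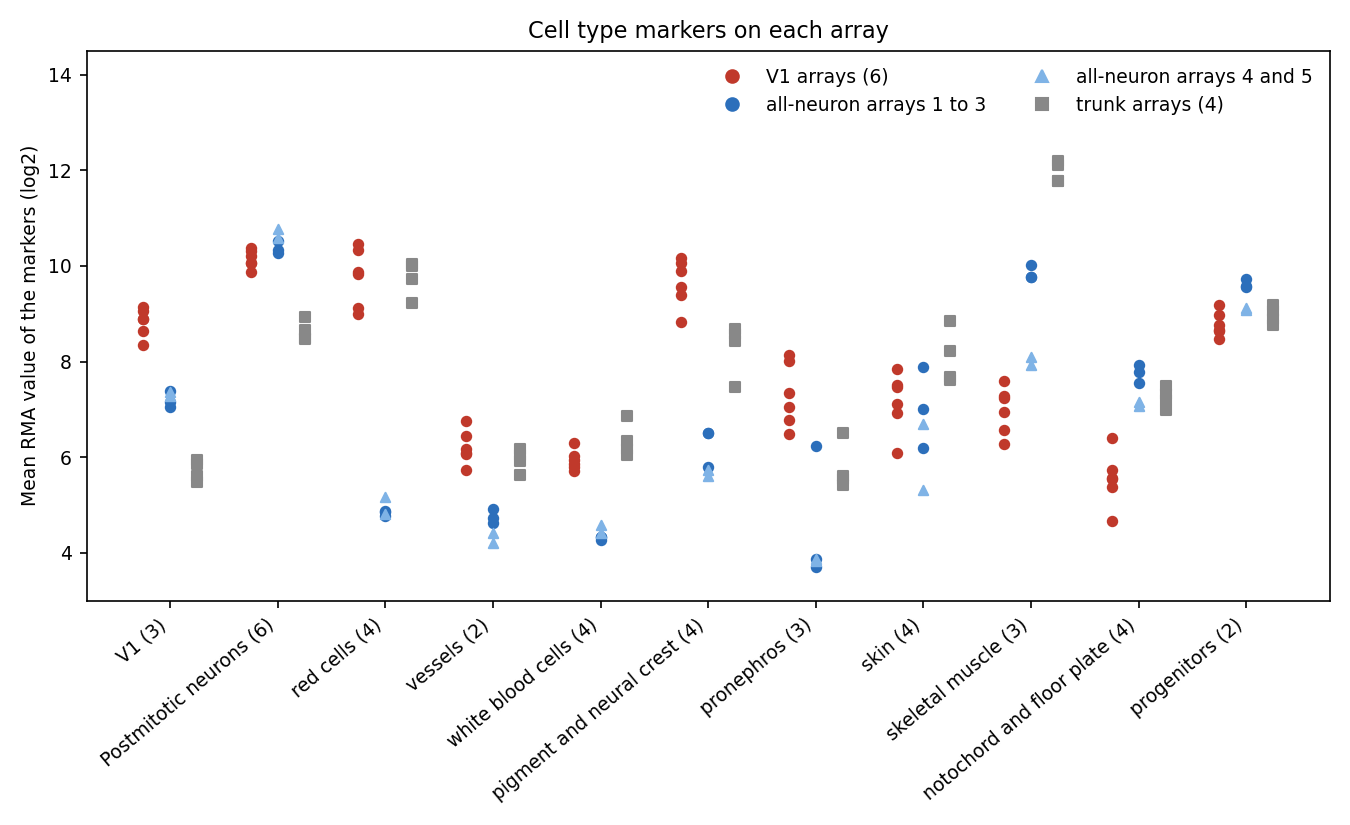
Each point is the mean RMA value (log2) of the markers of 1 cell type on 1 array, with the number of markers measured in brackets. Red circles are V1 arrays, dark circles and light triangles all-neuron arrays 1 to 3 and 4 and 5, and squares trunk arrays. Markers of V1 cells, red cells, vessels, white blood cells, pigment cells and pronephros are higher on V1 than on all-neuron arrays, and those of muscle, notochord and floor plate are lower.

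In the plot of marker means, all-neuron array 1 stands out in the pronephros column, at 6.25 beside 3.70 to 3.87 on the other all-neuron arrays. The muscle column splits the all-neuron arrays, with 9.77 to 10.03 on arrays 1 to 3 and 7.92 to 8.11 on arrays 4 and 5.

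Of 34 red cell genes 23 rose (67.6%) and 1 fell (2.94%), beside 15.2% and 9.02% over all genes (median 1.08). The embryonic globin gene hbbe3 read 10.71, 11.65 and 12.28 on V1 arrays and 4.77, 5.55, 5.00, 5.65 and 5.28 on all-neuron arrays, a difference of 6.29 (adjusted p = 8.95e-10). V1 arrays lay within or near the trunk range (11.08 to 11.92). Enzymes of haem synthesis, alas2 (2.12) and urod (2.10), rose with the globins. Of 29 vessel genes 15 were higher (51.7%) and 2 lower (6.90%), with a median of 0.43. kdrl, a receptor of vascular endothelial growth factor, read 6.84, 7.52 and 8.39 against 5.20, 5.09, 5.48, 4.21 and 4.13 (2.83). White blood cell genes rose in 15 of 30 cases (50.0%) and fell in 0 (median 0.41), with the lysozyme gene lyz at 7.84 to 9.25 against 4.75 to 5.57 (3.47).

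Pigment cell and neural crest genes rose in 24 of 37 cases (64.9%, beside 15.2% over all genes), 22 of them in all 3 tests (median 1.09). dct, an enzyme of melanin synthesis, read 9.19, 10.21 and 10.62 on V1 arrays, 5.25, 5.35, 5.56, 4.79 and 4.89 on all-neuron arrays and 7.87 to 9.54 on trunk arrays. It rose by 4.90 (adjusted p = 1.63e-08), and V1 array 3 was the lowest of its group. mitfa, the master factor of melanocytes (3.38), slc2a15b, a sugar transporter gene of pigment cells (3.20), and paics, an enzyme of purine synthesis on which pigment cells rely (2.55), shared this order of groups.

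Of 36 pronephros and ionocyte genes 14 were higher (38.9%) and 3 lower (8.33%), beside 15.2% and 9.02% over all genes (median 0.08). slc4a2a, an anion exchanger of the kidney duct, read 8.17, 8.84 and 9.87 against 5.00, 4.65, 4.77, 3.93 and 4.04 (4.41), although its dimmer probe sets differed by 0.55 and 0.08. atp1a1a.4, a sodium pump subunit, read 8.84, 9.11 and 10.50 on V1 arrays and 8.75, 4.02, 3.98, 4.16 and 4.24 on all-neuron arrays (4.37, adjusted p = 0.000283). cdh17, a kidney cadherin, behaved alike, since all-neuron array 1 stood at 6.20 and the rest of its group at 4.08 to 4.26 (2.81). pax2a and lhx1a also belong to this list. The pronephros markers and pax2a were both higher on V1 than on all-neuron arrays. V1 array 2, lowest for pax2a (7.33), had a pronephros marker mean of 8.01. V1 array 4, at 8.35 for pax2a, had the highest mean (8.13). V1 array 6, highest for pax2a (8.77), had a mean of 6.77. The part of pronephros cells in the pax2a value was not tested.

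Skin genes rose in 11 of 59 cases (18.6%, beside 15.2% over all genes) and fell in 3 (median 0.07), and 17 rose without all-neuron array 1. krt8, a simple keratin, rose by 2.06 and elf3, an epithelial ETS factor, by 2.43. Of the skin markers, cldnb rose (1.28), while krt4 (−0.38), krt5 (−0.28) and epcam (1.52) were not called. Extracellular matrix genes rose in 8 of 38 cases (21.1%, beside 15.2% over all genes) and fell in 1 (median 0.17). Of them, 12 were higher against all-neuron arrays 4 and 5 and 4 against arrays 1 to 3. tnn, a tenascin, rose by 2.37 (1.73 and 3.35 against the subsets).

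Skeletal muscle genes gave the widest disagreement between the subsets. Of 76 genes 33 fell (43.4%) and 2 rose (2.63%), beside 9.02% and 15.2% over all genes (median −0.85). However, 48 fell against all-neuron arrays 1 to 3 (median −1.49) and 9 against arrays 4 and 5 (median −0.09), with 22 without all-neuron array 1. mylpfa, a fast myosin light chain, read 9.82, 10.39 and 10.26 on arrays 1 to 3 and 8.34 and 8.52 on arrays 4 and 5, against 6.11, 7.25 and 7.94 on V1 arrays (−2.29). It fell by 2.99 and 1.26 against the subsets and was called in all 3 tests, as were 8 of the 33. gapdh (−1.47) and the mitochondrial carrier gene slc25a4 (−1.76), which belong to the lists of glycolysis and oxidative phosphorylation, split the subsets in the same way (−2.24 and −0.32 for gapdh, −2.64 and −0.44 for slc25a4).

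Notochord, floor plate and cartilage genes fell in 19 of 52 cases (36.5%), 14 of them in all 3 tests, and rose in 5 (9.62%). The shares over all genes were 9.02% and 15.2%, and the list median was −0.09. The collagen gene col2a1a read 6.49, 7.57 and 7.92 on V1 arrays and 10.26, 10.20, 9.96, 9.35 and 9.27 on all-neuron arrays (−2.35, adjusted p = 4.25e-06). col9a1b (−3.07), col9a3 (−2.89) and col9a2 (−2.85), chains of the collagen that accompanies it, fell with it. lamb1a (1.24) and lama4 (1.10), laminin chains of basement membranes, rose. Genes that fell in V1 arrays while the trunk stood above all neurons also included spegb, a kinase of striated muscle (−1.49), and pmp22b, a peripheral myelin protein gene (−1.82), with hsd17b8 (−2.38), for which all-neuron array 1 stood apart at 8.42 beside 5.59 to 6.35 elsewhere in its group.

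Of 73 ribosomal protein genes 68 were higher (93.2%, beside 15.2% over all genes) and 0 lower. Of the 68, 43 were higher in all 3 tests (list median 0.57, at 0.50 and 0.65 against the subsets). Their mean level was 11.57 to 12.18 on V1 arrays, 11.24 to 11.62 on all-neuron arrays and 11.72 to 12.05 on trunk arrays, so that V1 array 4 lay below all-neuron array 1. rpl12 read 12.39, 12.78 and 13.01 against 12.09, 11.94, 11.67, 11.59 and 11.68 (0.95, adjusted p = 2.05e-05). Of 63 translation factor genes 27 rose (42.9%) and 6 fell (9.52%), beside 15.2% and 9.02% over all genes (median 0.23). Those that fell most were eef1a1b, a form of the elongation factor (−1.46), and eef2l2 (−1.22). Under the scaling that sets ribosomal protein means equal, the rises of ribosomal protein genes are removed by construction.

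Genes of heat shock and stress rose in 26 of 78 cases (33.3%) and fell in 4 (5.13%), beside 15.2% and 9.02% over all genes (median 0.30). The antioxidant gene prdx1 read 8.45, 9.09 and 9.91 against 7.18, 7.52, 7.29, 6.57 and 6.83 (2.04, adjusted p = 8.97e-05). keap1a, the sensor of the oxidative stress factor Nrf2, rose by 1.72 (adjusted p = 7.79e-07), sqstm1, an autophagy adaptor, by 1.58 and hspd1, a mitochondrial chaperonin, by 1.34. gclm, an enzyme of glutathione synthesis named after its values were seen, rose by 0.65. hsf1, the heat shock factor itself, fell by 0.91 (adjusted p = 3.34e-05), and hspb1, a small heat shock protein that muscle also holds, by 1.36 with a split of the subsets (−1.88 and −0.57).

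Immediate early genes moved both ways, with 15 of 57 higher (26.3%) and 8 lower (14.0%), beside 15.2% and 9.02% over all genes (median 0.05). gadd45aa, a growth arrest gene, read 4.77, 5.38 and 5.92 against 3.02, 3.31, 3.25, 3.39 and 3.34 (2.15), and cebpd, a stress and inflammation factor, rose by 2.12. Among the members that fell was egr4, an EGR factor, at 6.78, 7.42 and 8.59 against 9.53, 8.96, 8.92, 9.08 and 8.65 (−1.44, adjusted p = 0.00103). nr4a1, a nuclear receptor, fell by 1.37, and dusp2, a phosphatase, by 1.46. egr1 fell by 1.47 (adjusted p = 0.0198) but overlapped and was −0.62 against arrays 4 and 5. Its call was lost without all-neuron array 2 (adjusted p = 0.0538) or array 3 (0.0585).

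The median of DNA replication and mitosis genes differed in sign between the subsets, while most genes passed neither test. Over 89 genes it was −0.01, but −0.23 against all-neuron arrays 1 to 3, with 4 higher and 9 lower, and 0.29 against arrays 4 and 5, with 16 higher and 0 lower. Their mean level was 7.59 to 7.66 on all-neuron arrays 1 to 3 and 7.09 and 7.22 on arrays 4 and 5. V1 arrays 1 to 3 read 7.53, 7.73 and 7.67, and V1 arrays 4 to 6 read 7.08, 7.29 and 7.30. Each subset was compared with all 6 V1 arrays, and the split of the V1 arrays by number was not tested. pcna, the sliding clamp of replication, read 11.13 to 11.71 on V1 arrays and 11.03 to 11.88 on all-neuron arrays and was not called in the test against all of them. Genes of oxidative phosphorylation gave 2 higher and 2 lower of 82 (2.44% each, median 0.03). Those of glycolysis gave 3 higher (7.89%) and 6 lower (15.8%) of 38, beside 15.2% and 9.02% over all genes. Sterol synthesis genes fell in 3 of 18 cases (16.7%), with 7 lower against all-neuron arrays 4 and 5. An example was acaca, a carboxylase of fatty acid synthesis (−0.97, at −0.52 and −1.65).

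**Figure D5:**
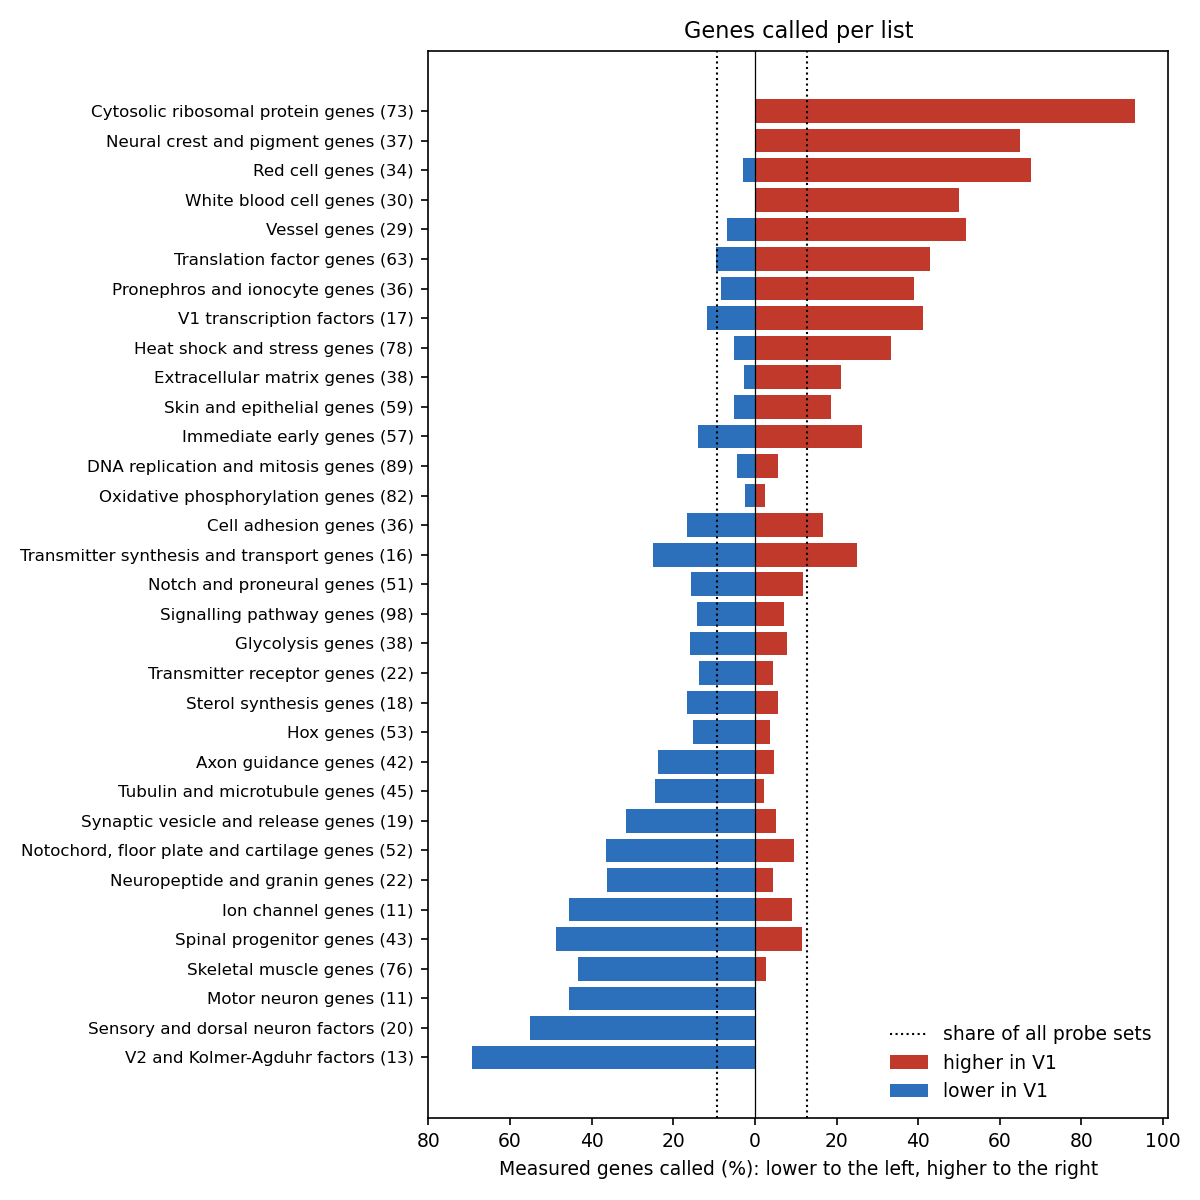
Bars show the percentage of measured genes of each list called lower (blue, to the left) or higher (red, to the right) in V1 arrays, with the number of measured genes in brackets. Dotted lines mark the percentages over all probe sets, 9.30% lower and 12.7% higher. Ribosomal, pigment and red cell lists reach farthest right, and the lists of V2 and Kolmer-Agduhr, sensory and dorsal, and progenitor genes reach far left.

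The plot of list counts sets these lists beside each other. The list of V1 transcription factors had a larger share of rises (41.2%) than falls (11.8%), while the 3 lists of other neuron classes held no gene that rose. All lists were chosen with earlier results of these data known, so these shares describe the calls. Lists of blood, vessel, pigment and pronephros genes passed the dotted line on the side of rises. So did those of ribosomal protein, translation factor, heat shock, immediate early, transmitter, matrix, skin and adhesion genes. The dotted lines count all probe sets, while the bars count genes by their brightest probe set, of which 15.2% rose and 9.02% fell.

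elavl3, the gene whose reporter sorted all spinal neurons, gave probe sets that disagreed. The brightest read 10.09, 10.62 and 11.23 on V1 arrays and 9.79, 10.66, 10.76, 10.75 and 10.40 on all-neuron arrays and was not called (0.13, adjusted p = 0.736), as was the case for both of the dimmest (0.15 and 0.18). The probe set next in brightness read 6.07, 6.42 and 6.49 against 9.56, 9.14, 9.08, 9.39 and 9.03, a fall of 2.87 (adjusted p = 6.94e-05). On trunk arrays 1 to 4 it read 7.51, 7.11, 4.62 and 5.20. The array control probe set AFFX-Dr-U43284-1_s_at, which was not tested, showed the same order, at 4.98 to 5.59 on V1 arrays, 10.16 to 10.76 on all-neuron arrays and 8.02, 8.16, 5.63 and 5.71 on trunk arrays. A gap of at least 1 with trunk arrays 1 and 2 above arrays 3 and 4 was present in 20 of 15502 probe sets (0.129%) and in 4 of the 613 lower ones (0.653%), among them elavl3, sox19b (−2.20) and rrad (−1.63). Its part in these 3 falls was not tested.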

How the data were processed

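Per the submitters' processing notes, the authors made the deposited log2 values by RMA in Affymetrix Expression Console from Affymetrix Zebrafish Genome Arrays. Its version is not given in the sources used here. RNA of sorted cells went through 2 rounds of amplification, per the labels' protocols. Array medians were 5.46 to 5.57. RMA sets arrays to a common distribution, so differences are relative, and the number of arrays limits precision.

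Of 15617 probe sets, 115 controls were left out. Of the other 15502, 10795 had 1 gene symbol, 135 several and 4572 none. Genes were named from the platform annotation, updated through gene numbers (10710 symbols kept, 1 changed, 84 unmatched), and a gene enters a list by its brightest probe set. limma 3.58.1 in R 4.3.3 was fitted to all 15 arrays, with V1 minus all neurons as the difference, two-sided tests and Benjamini-Hochberg adjustment. A fit with all-neuron arrays 1 to 3 and 4 and 5 as separate groups gave the subset tests. The steps were tested on simulated data. Figures were drawn with matplotlib 3.10.9.

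Named genes were en1b, pax2a, otpb, en1a and elavl3, up to 12 genes in each of 4 classes (higher or lower, by trunk mean, ranked by the smaller of the subset differences), the members of each of 33 lists with the largest called differences (up to 4 a direction), the brightest 2 not called, and members of any count of 5 or fewer. Some genes were added after their values were seen: lhx5, hmx3a, lhx1a, vsx1, tal1, prdm14, nlgn4xa, nptx1l, calb1, calb2a, olig2, foxa2, rrad, gclm, mitfa, kdrl, cdh17, alas2, lyz, paics, slc2a15b, urod, pcna and those of the closing section. The members and lists were chosen with earlier results of these data known. Same-numbered V1 and all-neuron arrays correlated at −0.07, 0.36, −0.01, 0.17 and −0.08 in their deviations from group means. The numbers were not taken as pairs, since no label pairs them. No batch is named in the labels. No sequence is printed, since the reference tables used here hold none.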

Additional observations from a re-analysis of the deposited data

Results flagged for a closer look

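The values of all named genes were searched for a single array far from the rest of its group, by Dixon's criterion. Of 606 groups of values, 38 (6.27%) held one, where chance gives about 1 in 20. V1 array 3 was the array in 16 of them and all-neuron array 1 in 12.

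V1 array 3 read low for genes of pigment cells and lysosomes. Its values were 9.57 for slc2a15b (10.31 to 10.64 on the other V1 arrays), 8.72 for rab32a, 7.24 for dtnbp1a, 6.07 for bloc1s4 (7.09 to 7.25), 5.49 for ankrd27, 9.39 for ctsba and 7.36 for ctsc. It was low too for keap1a (7.40), pcdh10a (6.14) and tpm3 (9.35). It read high for si:ch211-80h18.1 (8.30 beside 6.35 to 6.96), cdh2 (11.02), slc18a3a (11.15), ablim1a (5.65), spock3 (9.77) and foxa2 (5.27).

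All-neuron array 1 read high for the pronephros genes atp1a1a.4 (8.75 beside 3.98 to 4.24) and cdh17 (6.20 beside 4.08 to 4.26). It was also high for hsd17b8 (8.42), tfap2a (9.60), tktb (8.60), ctsla (9.82), rpl27a (9.53), uqcrh (9.60) and pbx2 (8.88). It was low for vsx1 (4.91), foxd3 (8.18) and klf4 (4.90).

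The other arrays gave single values. Among V1 arrays, array 1 was low for the elavl3 probe set that fell (6.07) and high for anxa6 (6.64), and array 2 was high for syngr1a (8.02) and low for cebp1 (5.77). V1 array 4 was high for pvalb3 (4.98), and V1 array 6 was low for capn2l (4.28) and col2a1a (6.49). Among all-neuron arrays, array 2 was high for dnajc10 (6.82), array 4 high for sqstm1 (5.53) and array 5 low for her6 (7.06).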

How the results depend on the processing

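With ribosomal protein means set equal, the counts were 512 higher and 11691 lower. A test against a log2 difference of 0.5 gave 390 and 236, a threshold of 0.01 gave 1209 and 776, and probe sets above the median level alone gave 916 lower (1430 higher). The other settings kept both counts within 1.5 times the reported 1966 and 1442. Equal array medians moved the share of higher calls from 57.7% to 48.7%. Leaving out 1 array at a time gave 1583 to 1990 higher and 1130 to 1494 lower. Of 235 called named probe sets, 37 lost their call without some array and 0 changed sign. The replicate block gave 1761 and 1299. Same-numbered arrays correlated at −0.08 to 0.36 in their deviations from group means. All-neuron arrays 2 and 3 correlated with V1 arrays 1 and 2 at 0.13 to 0.36. All-neuron arrays 4 and 5 correlated with the same V1 arrays at −0.30 to −0.05. No label pairs the numbers, so they are not read as pairs. Counts of lists against each subset, or without all-neuron array 1, were chosen after seeing the data. Signal over background is unknown, so that dim genes, such as en1a, carry little weight.

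Equal ribosomal protein means turned 29 named differences negative that were called with or without that scaling. The median probe set is at −0.56 on that scale, by its construction. Differences called on neither scale were not counted. These were efna5a (−0.20), ctnnb1 (−0.38), scn8aa (−0.53), dld (−0.51), ier2a (−0.52), mcm5 (−0.43), gria2b (−0.13), pcna (−0.55), slc32a1 (−0.14), sparc (−0.45) and hmga1a (−0.38). Also turned were tuba5 (−0.067), eif3ea (−0.33), cope (−0.43), eif3d (−0.46), cavin2b (−0.50), lhx1a (−0.14), uqcrh (−0.088), atp5f1b (−0.39), vps35 (−0.096), trpm7 (−0.083) and pbx2 (−0.30). The last were fbp1b (−0.091), sec23a (−0.048), tubb2b (−0.47), ephb4a (−0.54), eno1b (−0.20), copa (−0.24) and slc25a3b (−0.41). tubb2b also turned under cyclic loess (−0.20), where the cause was not tested.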

Other observations

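Genes of lysosomes and of related organelles, a group chosen after the values were seen, rose in 34 of 70 measured cases and fell in 1, 24 of them in all 3 tests (median 0.31, at 0.39 and 0.25 against the subsets of all-neuron arrays). Over the 8793 genes taken by their brightest probe set, 1337 rose (15.2%) and 793 fell (9.02%), 711 and 337 of them in all 3 tests. The groups of this section were gathered by patterns of gene symbols, which can also take in genes of other functions, such as clns1a here. rab32a, a small GTPase of melanosome transport, rose by 3.37, and the cathepsin genes ctsc and ctsba by 2.43 and 2.16. hps4, a subunit of the complex that activates Rab32, rose by 1.30. Members whose trunk level was not above that of all neurons included psap, the prosaposin gene (1.03), lamp1a, a lysosomal membrane protein (0.75), and vps35, part of the retromer (0.46). dtnbp1a (0.96) and bloc1s4 (0.88), subunits of the complex BLOC-1, and ankrd27, a binding partner of Rab32 (0.89), belonged there too. Pigment markers stood high on the same V1 arrays, and V1 array 3, lowest of them for pigment markers, was lowest for bloc1s4 (6.07), dtnbp1a (7.24) and ankrd27 (5.49). Their part in these rises was not tested.

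Genes of motile cilia, also grouped after the values were seen, fell in 14 of 46 cases and rose in 3, with 9 lower in all 3 tests (median −0.15). Over all genes 9.02% fell and 15.2% rose. rsph9, of the radial spoke, read 5.58, 5.81 and 5.98 (lowest, median and highest) on V1 arrays and 6.86, 7.13, 7.25, 7.08 and 6.87 on all-neuron arrays, a fall of 1.22 with no overlap. daw1, a dynein assembly factor, fell by 1.19, and enkur, a protein of motile cilia, by 1.16. Genes lower in all 3 tests also included dim ones, such as cfap100, with means of 3.00 on V1 and 3.34 on all-neuron arrays. The 3 that rose were spag1a (0.67), rsph1 (0.42) and dnali1 (0.26), and 0 of them rose in all 3 tests. Floor plate and Kolmer-Agduhr cells carry motile cilia. Of the 4 markers of notochord and floor plate, 3 fell and ntn1b did not pass (−0.01, adjusted p = 0.957), and 9 of 13 genes of V2 and Kolmer-Agduhr cells fell. Their part in these falls was not tested. Genes of proteasome subunits and of proteins with like symbols gave 7 higher and 1 lower of 50 (median 0.07). Over all genes 15.2% were higher and 9.02% lower. The 1 lower gene was psmf1 (−0.37), a proteasome inhibitor.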
